A study of Mus musculus with 24 samples.

Results

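Chemokines and their receptors form 1 family of guidance genes, and 63 such genes were followed in RNA sequencing of mouse bone-marrow-derived macrophages. They were taken from the 47372 genes of the tables by symbol: protein-coding genes on numbered chromosomes or X named Ccl, Cxcl, Ccr, Cxcr, Ackr, Xcl or Xcr with a number, plus Cx3cl1, Cx3cr1, Ccrl2, Pf4 and Ppbp. By known role, 39 are ligands and 24 are receptors. At least 1 read was found for 59 of the 63, and 36 had reads in all 24 libraries. The marrow came from 6 mice aged 8 to 12 weeks, all labelled C57BL/6J: 3 with intact liver X receptors (LXR-positive) and 3 lacking both LXRα and LXRβ (DKO, for double knockout). Marrow cells were grown in DMEM with serum and L929-conditioned medium, which drives them to become macrophages. Cultures from every mouse were exposed to vehicle, to KLA (Kdo2-lipid A, the TLR4-activating part of bacterial lipopolysaccharide) at 100 ng/ml, GW3965 (a synthetic LXR agonist) at 1 µM, or AcLDL (acetylated low-density lipoprotein, a cholesterol load taken up by scavenger receptors) at 50 µg/ml. This made 8 groups of 3 libraries, numbered 1 to 3 by mouse within a genotype. Exposure to vehicle, KLA and GW3965 began on day 5 and lasted 17 hours, while the sources used here do not give the duration of AcLDL.

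Chemokines are small secreted proteins that bind G protein-coupled receptors on leukocytes and set the direction in which those cells move. They are named by the spacing of their first cysteines (CC, CXC, CX3C and XC), and one receptor often binds several ligands. CXC ligands with a Glu-Leu-Arg motif (ELR) draw neutrophils through Cxcr2, ligands of Cxcr3 draw activated T cells, and Ccl2 and Ccl7 draw monocytes through Ccr2. Atypical receptors bind chemokines without the usual G protein signal. In macrophages, TLR4 ligands switch on many chemokine genes through NF-κB and interferon-regulatory factors, and LXRs are known for restraining part of that inflammatory program.

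Promoter sequence is shown first for 4 ligands whose responses to KLA are given further on: the ELR ligands Cxcl1, Cxcl2 and Cxcl3, which lie in 1 cluster on chromosome 5, and the Cxcr3 ligand Cxcl10. The runs are from RefSeq (GRCm38.p6), cover 220 to 31 bases before each start, and read 5′ to 3′ on the gene's strand. Capitals mark letters that match the NF-κB motif (GGG and TTCC with 3 free letters between them) or, in Cxcl10 at the left end, the interferon-response motif (GAAA and GAAA with 2 free letters between them), each searched on both strands.
Cxcl1 (chr5:90891025-90891214, plus strand): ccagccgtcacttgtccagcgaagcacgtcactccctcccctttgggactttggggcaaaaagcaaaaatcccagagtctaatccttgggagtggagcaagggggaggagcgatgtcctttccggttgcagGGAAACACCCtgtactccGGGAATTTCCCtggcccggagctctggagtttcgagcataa
Cxcl2 (chr5:90903679-90903868, plus strand): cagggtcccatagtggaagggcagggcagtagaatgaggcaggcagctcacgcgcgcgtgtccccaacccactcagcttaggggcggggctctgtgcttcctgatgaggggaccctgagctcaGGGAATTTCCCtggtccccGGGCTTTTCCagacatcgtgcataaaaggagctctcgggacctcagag
Cxcl3 (chr5:90785881-90786070, plus strand): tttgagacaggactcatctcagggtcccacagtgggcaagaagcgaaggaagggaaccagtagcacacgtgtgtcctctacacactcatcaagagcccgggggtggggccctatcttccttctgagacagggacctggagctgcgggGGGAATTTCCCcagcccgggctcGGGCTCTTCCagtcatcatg
Cxcl10 (chr5:92348920-92349109, minus strand): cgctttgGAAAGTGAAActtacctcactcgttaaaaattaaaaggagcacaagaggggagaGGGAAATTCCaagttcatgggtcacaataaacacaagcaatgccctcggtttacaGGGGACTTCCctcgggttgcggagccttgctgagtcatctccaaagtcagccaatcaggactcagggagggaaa
The same 10 letters, GGGAATTTCC, began 71, 97 and 73 bases before the start of Cxcl1, Cxcl2 and Cxcl3, and matched on the opposite strand too, shifted by 1 base. Each of these promoters held a further match, beginning at 89, 78 and 50 bases. Cxcl10 held 2 other κB matches, beginning at 159 and 104 bases, and the interferon-response match at 213. In the 250 bases before the start, the κB letters occurred for 1434 of 27025 genes of the table (5.306%) and the interferon-response letters for 936 (3.463%). A promoter was matched for 49 of the 63 family members, and 9 of these held the κB letters. They stood in 4 of the 8 matched members that rose with KLA in either genotype, in 0 of the 5 that fell and in 2 of the 17 that were tested and not called (Ccl9 and Ccr3). The 4 that rose and held the letters are the ones shown above, while Cxcl9, Ccl3, Ccl22 and Ccrl2 rose and held none. No promoter was matched for Ccl5, Cxcl16 and Ccr7, which also rose. The interferon-response letters occurred in Ccl19, Cxcl10 and Cxcl14. A match is a description of letters, not of binding.

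Values are the authors' normalized counts, that is, read counts divided by a size factor per library. Libraries held 6448579 to 17348717 reads in LXR-positive and 9705391 to 27189081 in DKO cells, so the deepest libraries were DKO and the shallowest LXR-positive. Family members took on average 0.2 to 0.291% of the reads of a group, and 43 to 54 of them had reads in a library. Nr1h2, which encodes LXRβ, had 438 to 821 normalized counts across LXR-positive libraries and 275 to 399 across DKO libraries. Nr1h3, which encodes LXRα, had 135 ± 35.8 with vehicle in LXR-positive and 181 ± 5.43 in DKO cells (SD, n = 3). Across all treatments its ranges, 114 to 1267 and 123.02 to 751, overlapped. Both are values of the whole gene and do not check which exons were deleted. Abca1, a classical LXR target, stood at 8684 ± 477 with vehicle and 38559 ± 3148 with GW3965 in LXR-positive cells, and at 15100 ± 1414 and 16146 ± 1110.2 in DKO cells (SD, n = 3). All 11 macrophage markers were present, among them Adgre1 at 11224 to 67069. Of 12 markers each for neutrophils with their precursors, stromal cells and lymphocytes, 11, 9 and 4 had a median of at least 10.

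With vehicle, the family was dominated by a few genes. Per kilobase of exon, which makes levels of different genes comparable, Ccl9 (a CC ligand of Ccr1) had 1865 normalized counts for LXR-positive and 1722 for DKO cells, and Ccl6, another Ccr1 ligand, 1664 and 2404. Cxcr4, the receptor of Cxcl12, had 1294 and 1393, and Cxcl16, a ligand made as a membrane-bound scavenger receptor, 1248 and 1222. These were the 4 highest members in both genotypes. With KLA, Ccl5 led at 14498 and 16673, and the next member of each genotype, Ccl9 in LXR-positive and Cxcl16 in DKO cells, had 2072 and 1698 per kilobase.

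KLA changed ligands mostly upward and receptors in both directions. Of 40 members with enough reads to test (at least 10 normalized counts in 3 of the 12 libraries of a fit), 15 were called in LXR-positive cells, 9 higher and 6 lower. In DKO cells 15 were called too, 11 higher and 4 lower. The calls rest on limma with Benjamini-Hochberg adjustment over all genes tested, at an adjusted p under 0.05. The same rule called 28.6% of all genes in LXR-positive cells (2584 genes higher and 1982 lower of 15957) and 25.2% in DKO cells (2238 higher and 1778 lower). The median log2 fold change of the 40 members was 0.35 and 0.20, beside -0.0028 and -0.0038 over all genes tested. The share of mitochondrial reads was lower with KLA in each of the 6 mice, at 14.33 to 19.34% with vehicle and 8.99 to 15.54% with KLA in LXR-positive libraries. DKO libraries had 14.02 to 16.64% with vehicle and 8.76 to 12.58% with KLA. Its part in the KLA changes was not tested. Both genotypes called 13 members: Cxcl1, Cxcl2, Cxcl3, Cxcl9, Ccl3, Ccl5, Ccl22, Ccr7 and Ccrl2 rose, and Ccl6, Ccr2, Cxcr3 and Cxcr4 fell. Of the other members named here, Cxcr2 passed in LXR-positive cells, and Cxcl10 and Cxcl16 in DKO cells. Among the 25 tested ligands, 7 rose and 1 fell in LXR-positive and 9 rose and 1 fell in DKO cells. Of the 15 tested receptors, 2 rose and 5 fell, and 2 rose and 3 fell.

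**Figure D1:**
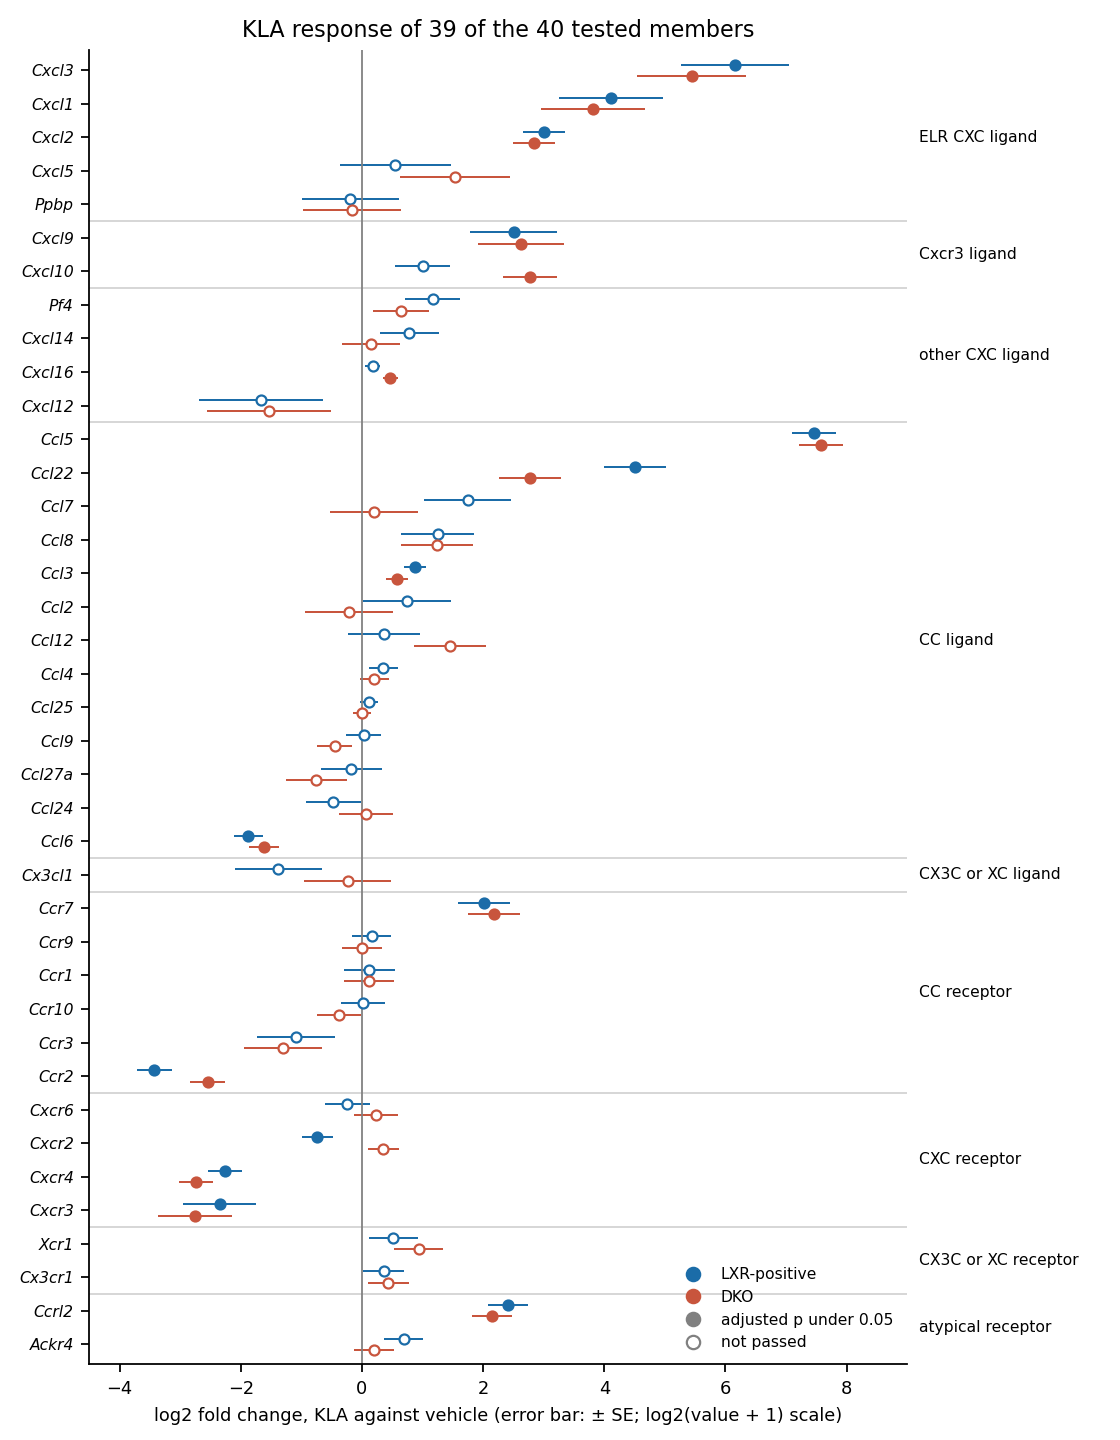
Log2 fold change with KLA against vehicle (x axis, log2(value + 1) scale, error bars ± SE of the limma fit) for 39 of the 40 tested members, grouped by role, in LXR-positive (blue) and DKO (red) cells; filled points passed an adjusted p under 0.05. The largest rise was that of Ccl5 (7.47 and 7.57) and the largest falls were those of Ccr2, Cxcr3 and Cxcr4.

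The neutrophil-attracting ELR ligands rose from low vehicle levels. Of 5 tested, 3 rose in each genotype. Cxcl1 (ENSMUSG00000029380, GRCm38 chromosome 5, 90891241 to 90893115) stood at 8.33, 6.23 and 15.9 normalized counts with vehicle and 491, 59.9 and 196 with KLA in LXR-positive libraries 1 to 3. In DKO libraries it stood at 5.80, 2.97 and 0.451 with vehicle and 90.3, 81.4 and 13.5 with KLA. Every KLA library lay above the vehicle libraries of its genotype, and the spread between mice was wide. The log2 fold change, on the log2(value + 1) scale used throughout, which understates the change of low genes, was 4.11 ± 0.86 (SE, limma adjusted p = 0.00352) and 3.81 ± 0.86 (0.0064). Cxcl2, beside it at chromosome 5, 90903871 to 90905938, went from 53.5, 58.4 and 59.9 to 765, 273 and 486 in LXR-positive and from 74.0, 84.3 and 64.5 to 366, 856 and 494 in DKO cells. Its vehicle libraries lay closer together than those of Cxcl1, and the log2 fold changes were 3.00 ± 0.35 (adjusted p = 5.8e-05) and 2.85 ± 0.35 (9.5e-05).

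Cxcl3 (chromosome 5, 90786103 to 90789600), a further Cxcr2 ligand, was nearly silent with vehicle, at 4.76, 1.56 and 14.7 in LXR-positive and 2.90, 4.15 and 3.16 in DKO libraries. With KLA it reached 1329, 295 and 211 and 86.1, 779 and 99.8, and no KLA library overlapped vehicle. Mouse 1 was highest in LXR-positive and mouse 2 in DKO cells. The log2 fold changes were 6.16 ± 0.89 (adjusted p = 0.0003) and 5.44 ± 0.89 (0.00085). Cxcl2 and Cxcl3 are close copies: 7.59% of the 31-base words in Cxcl2's transcripts and 5.46% of those in Cxcl3's also occur in other genes, mostly in each other, so part of their reads could be split between them. Between and beside these genes, the tested neighbours Cxcl5 and Ppbp, both also Cxcr2 ligands, and Pf4 (platelet factor 4) were not called. Cxcl5 had 7.10 ± 4.03 with vehicle and 19.9 ± 28.0 with KLA in LXR-positive (SD, n = 3) and 6.71 ± 2.69 with vehicle and 24.4 ± 14.8 with KLA in DKO cells. All 7 genes from Cxcl5 to Cxcl2 lie on chromosome 5 between 90759360 and 90905938, and the 3 called in both genotypes were Cxcl3, Cxcl1 and Cxcl2. The seventh, Cxcl15, reached at most a group mean of 3.88 and was not tested.

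**Figure D2:**
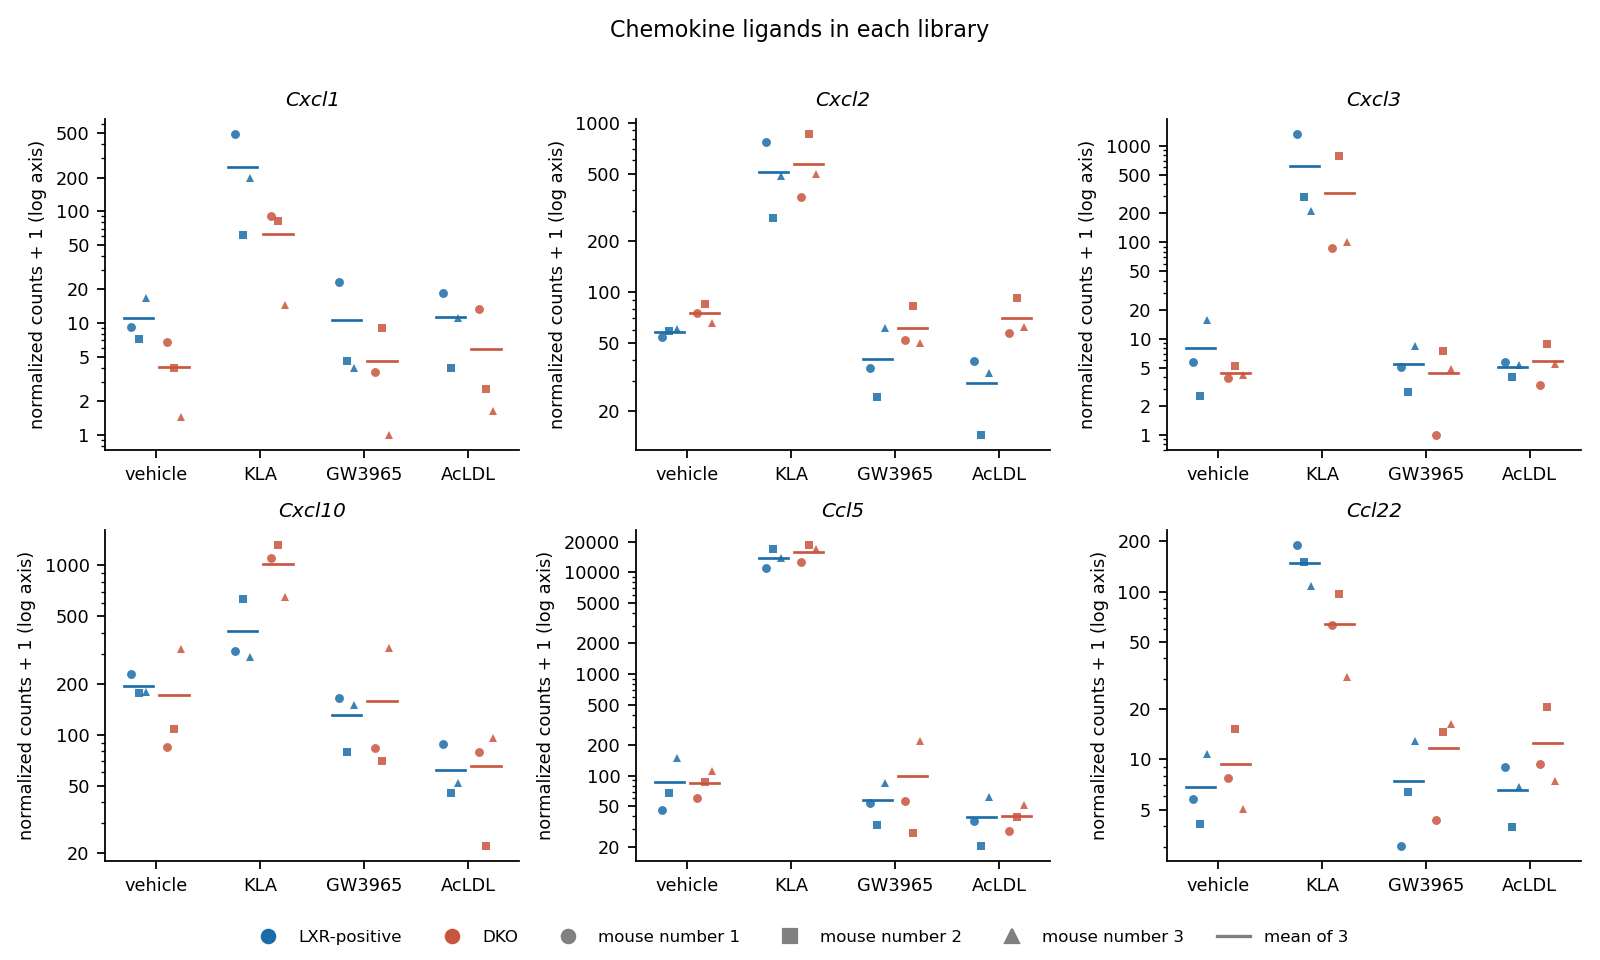
Normalized counts + 1 (y axis, log scale) of 6 chemokine ligands in each of the 24 libraries, by treatment; blue LXR-positive, red DKO, symbols give the mouse number within a genotype and bars the mean of 3. For all 6 ligands (Cxcl1, Cxcl2, Cxcl3, Cxcl10, Ccl5 and Ccl22) every KLA library stands above the vehicle libraries of its genotype.

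Of the ligands of Cxcr3, Cxcl9 rose with KLA in both genotypes and Cxcl10 in DKO cells. Cxcl9 (chromosome 5, 92321347 to 92328079), an interferon-γ-inducible gene, had 41.6, 4.67 and 28.1 normalized counts with vehicle and 97.8, 121 and 105 with KLA in LXR-positive libraries. DKO libraries had 32.9, 13.6 and 83.0 with vehicle and 278, 265 and 131 with KLA. The KLA libraries lay above vehicle in both genotypes, with log2 fold changes of 2.50 ± 0.71 (limma adjusted p = 0.0202) and 2.63 ± 0.71 (0.0181). The call was lost without LXR-positive vehicle 2 (0.0643) or KLA 2 (0.0508), and in DKO cells without vehicle 1 or 2 or KLA 1 or 2 (0.052 to 0.0754). Cxcl10 (ENSMUSG00000034855), its neighbour at 92346638 to 92348889 and a type I interferon response gene, had 227, 175 and 177 with vehicle and 312, 632 and 288 with KLA in LXR-positive cells. In DKO cells it had 84.2, 107 and 320.1 with vehicle and 1099, 1316 and 648 with KLA. KLA libraries lay above vehicle in both genotypes. The DKO rise passed (2.77 ± 0.45, adjusted p = 0.00081) and the LXR-positive one did not (1.00 ± 0.45, 0.121). The difference between the responses, 1.77 ± 0.64, did not pass either (limma adjusted p = 0.863). With KLA, every DKO library of Cxcl10 lay above all LXR-positive ones. This genotype difference in level was not called in limma and passed in DESeq2 (1.32, adjusted p = 0.0322).

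Among the other CXC ligands, Cxcl16 (chromosome 11, 70453983 to 70459984), the ligand of Cxcr6, was the only one of 4 tested to be called with KLA in limma. It had 3889, 3961 and 3458 with vehicle and 4651, 3621 and 4557 with KLA in LXR-positive libraries, which overlapped. In DKO libraries it had 3706, 3647 and 3719 with vehicle and 4497, 5809 and 5079.6 with KLA, without overlap, a log2 fold change of 0.47 ± 0.12 (limma adjusted p = 0.0153). This small rise was not called with quantile normalization (0.125) or without DKO KLA 2 (0.0623). Cxcl16 shares 552 exon bases with Zmynd15 on the opposite strand, and the sources used here do not give the strand setting of the counting, so its value may hold reads of that gene. Pf4, an abundant CXC ligand of platelets that macrophages also express, had 162, 261 and 219.9 with vehicle and 939, 443 and 255 with KLA in LXR-positive cells, where mouse 1 was highest with KLA (1.17 ± 0.46, adjusted p = 0.0777). It passed with DESeq2 (0.0155), with all 24 libraries (0.0212) and without KLA 3 (0.0224). Cxcl12, the ligand of Cxcr4, had 12.4 ± 7.80 with vehicle and 5.35 ± 6.83 with KLA in LXR-positive (SD, n = 3) and 47.5 ± 35.3 with vehicle and 13.1 ± 8.86 with KLA in DKO cells. Its log2 fold changes, -1.66 ± 1.03 and -1.53 ± 1.03, did not pass (adjusted p = 0.254 and 0.312). With the mouse as a block the LXR-positive change passed (0.0415). Cxcl14, a ligand without an agreed receptor, had 33.3 ± 21.1 with vehicle and 51.1 ± 17.1 with KLA, and 82.2 ± 32.3 with vehicle and 88.0 ± 23.1 with KLA, with adjusted p of 0.256 and 0.852.

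Ccl5 (RANTES, ENSMUSG00000035042, chromosome 11, 83525778 to 83530518), which draws T cells and monocytes, showed the largest change of the family. LXR-positive libraries had 45.2, 66.2 and 149 normalized counts with vehicle and 11037, 16871 and 13845 with KLA. DKO libraries had 59.0, 84.9 and 109.6 with vehicle and 12598, 18516 and 16904 with KLA. The groups lay far apart in both genotypes: the KLA mean was 160.3 times the vehicle mean in LXR-positive and 189 times in DKO cells. On the log2 scale that was 7.47 ± 0.36 (limma adjusted p = 1.4e-07) and 7.57 ± 0.36 (1.7e-07). Ccl22, a ligand of Ccr4 made by macrophages and dendritic cells (chromosome 8, 94745590 to 94751699), had 4.76, 3.11 and 9.78 with vehicle and 188, 148 and 106 with KLA in LXR-positive and 6.77, 14.2 and 4.06 with vehicle and 62.6, 96.2 and 30.0 with KLA in DKO cells. It rose by 4.51 ± 0.51 (adjusted p = 5.2e-05) and 2.77 ± 0.51 (0.00191). All 3 LXR-positive KLA libraries lay above the DKO ones, and the difference between the responses, -1.74 ± 0.73, did not pass (limma adjusted p = 0.863). Of the 10 dendritic cell markers listed, 7 were tested: Ly75 rose and Clec10a fell with KLA in both genotypes, and their part in the rise of Ccl22 was not tested.

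Ccl3 (MIP-1α), a ligand of Ccr1, was already expressed with vehicle and rose modestly. It had 139, 179.8 and 206 with vehicle and 384, 299.5 and 279 with KLA in LXR-positive cells (0.87 ± 0.17, limma adjusted p = 0.00272) and 194, 237 and 197 with vehicle and 334, 331 and 275 with KLA in DKO cells (0.58 ± 0.17, 0.0299). The DKO call was lost with the mouse as a block (0.0579) and without vehicle 1 or 3 or KLA 1 or 2 (0.0803 to 0.102). Ccl4 (MIP-1β), 13.2 kb away, had 51.0 ± 12.4 with vehicle and 64.0 ± 4.84 with KLA in LXR-positive (SD, n = 3) and 61.8 ± 17.7 with vehicle and 69.3 ± 0.892 with KLA in DKO cells, and was not called (adjusted p = 0.303 and 0.588).

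Ccl6 was the ligand that fell. It had 2878, 3179 and 2903 with vehicle and 907, 928 and 638 with KLA in LXR-positive libraries, and 3137, 5388 and 4419.7 with vehicle and 1048, 1994 and 1227 with KLA in DKO libraries. No KLA library reached the lowest vehicle library, and the log2 fold changes were -1.88 ± 0.24 (limma adjusted p = 0.00014) and -1.62 ± 0.24 (0.00047). In bulk libraries such as these, fewer cells of a type and less RNA per cell cannot be told apart. Ccl9, 9.2 kb from Ccl6 and the most abundant ligand with vehicle in LXR-positive cells, had 5783, 6237 and 5017 with vehicle and 5052, 10131 and 3748 with KLA in LXR-positive and 5927, 5541 and 4261 with vehicle and 4746, 3672 and 3159 with KLA in DKO cells. Its log2 fold changes of 0.03 ± 0.29 and -0.45 ± 0.29 did not pass (adjusted p = 0.956 and 0.298). Within chromosome 11 from 83525778 to 83664683, Ccl5 thus rose, Ccl9 was not called, Ccl6 fell, Ccl3 rose and Ccl4 was not called.

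The remaining tested CC ligands did not pass with KLA in limma. Ccl2 (MCP-1), the main ligand of Ccr2, had 26.2, 148 and 26.9 with vehicle and 79.6, 175 and 36.4 with KLA in LXR-positive and 269, 383 and 97.4 with vehicle and 183, 279 and 127 with KLA in DKO cells (adjusted p = 0.48 and 0.863). Its spread between mice of 1 group was larger than the difference. Ccl7 (MCP-3), which shares Ccr2 and lies 8.3 kb from Ccl2, had 2.38, 16.3 and 2.44 with vehicle and 13.05, 35.9 and 13.7 with KLA in LXR-positive libraries (1.75 ± 0.72, 0.0926). All 3 mice were higher with KLA, and the change passed with the mouse as a block (0.00974), with all 24 libraries (0.0459) and without vehicle 2 (0.0168). Ccl12, a mouse Ccr2 ligand, had 12.1, 9.50 and 17.1 with vehicle and 54.8, 42.5 and 20.2 with KLA in DKO cells (1.46 ± 0.59, 0.0966), and passed with quantile normalization (0.0412) and in DESeq2 (0.0416). In LXR-positive cells it had 8.33, 6.23 and 8.55 with vehicle and 6.52, 31.4 and 4.55 with KLA. Its DKO against LXR-positive difference with KLA was not called in the main fit. It passed with all 24 libraries (1.75, limma adjusted p = 0.049) and without LXR-positive KLA 2 (2.52, 0.0172). Ccl25, a ligand of Ccr9, had group means of 177 to 205 and was not called. It shares 204 exon bases with Elavl1 on the opposite strand. Ccl8, Ccl24, Ccl27a and the CX3C ligand Cx3cl1 (fractalkine) had group means of at most 24.4, and their adjusted p in both genotypes were 0.142 or more.

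Among CC receptors, Ccr2 fell with KLA in both genotypes. Ccr2 (ENSMUSG00000049103, chromosome 9, 124101950 to 124113557), which lets monocytes follow Ccl2, had 1677, 1672 and 1537 normalized counts with vehicle and 83.5, 204 and 200.4 with KLA in LXR-positive libraries. DKO libraries had 1317, 1466 and 1776 with vehicle and 206, 313 and 265 with KLA. The KLA groups stood far below vehicle in both genotypes, with vehicle means 10.02 and 5.82 times the KLA means and log2 fold changes of -3.43 ± 0.29 (limma adjusted p = 5.3e-06) and -2.55 ± 0.29 (5.3e-05).

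Ccr7, which guides dendritic cells and lymphocytes to lymph nodes, rose from a low level: 5.95, 6.23 and 19.6 with vehicle and 39.1, 38.9 and 41.0 with KLA in LXR-positive, and 3.87, 3.56 and 4.51 with vehicle and 26.3, 26.8 and 14.1 with KLA in DKO libraries. No KLA library overlapped vehicle (2.01 ± 0.43, limma adjusted p = 0.00411, and 2.18 ± 0.43, 0.00279). The summed dendritic cell markers lay at 829 to 1634 with vehicle and 572 to 1052 with KLA in LXR-positive, and at 504 to 1069.9 and 604 to 1095 in DKO cells. Of these markers, Clec10a fell from 986 ± 384 to 23.8 ± 8.95 and Ly75 rose from 40.4 ± 13.1 to 697 ± 232 in LXR-positive cells (SD, n = 3), and their part in the rise of Ccr7 was not tested. Ccr3, the eotaxin receptor, varied with the mouse. It had 125, 303 and 90.4 with vehicle and 58.7, 214 and 27.3 with KLA in LXR-positive and 238, 138 and 93.3 with vehicle and 78.2, 49.9 and 50.8 with KLA in DKO cells. The unblocked test did not call it (0.234 and 0.167), except in LXR-positive cells without KLA 2 (-1.88, limma adjusted p = 0.0211). With the mouse as a block it fell in both (adjusted p = 0.0121 and 0.00582). Of 10 mast cell, basophil and eosinophil markers, 1 was tested with KLA (Prg2), which was called lower in LXR-positive and not in DKO cells, Cma1 and Tpsb2 were at 0 in every library, and their part in the values of Ccr3 was not tested. Ccr1, a receptor of Ccl3, Ccl5, Ccl6 and Ccl9, had 86.1 ± 24.6 with vehicle and 97.0 ± 38.7 with KLA (SD, n = 3), and 126 ± 36.5 with vehicle and 148 ± 89.4 with KLA, and was not called (0.851 and 0.865). Ccr9 and Ccr10, the receptors of Ccl25 and of Ccl27 and Ccl28, had group means of at most 51.7 and were not called.

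**Figure D3:**
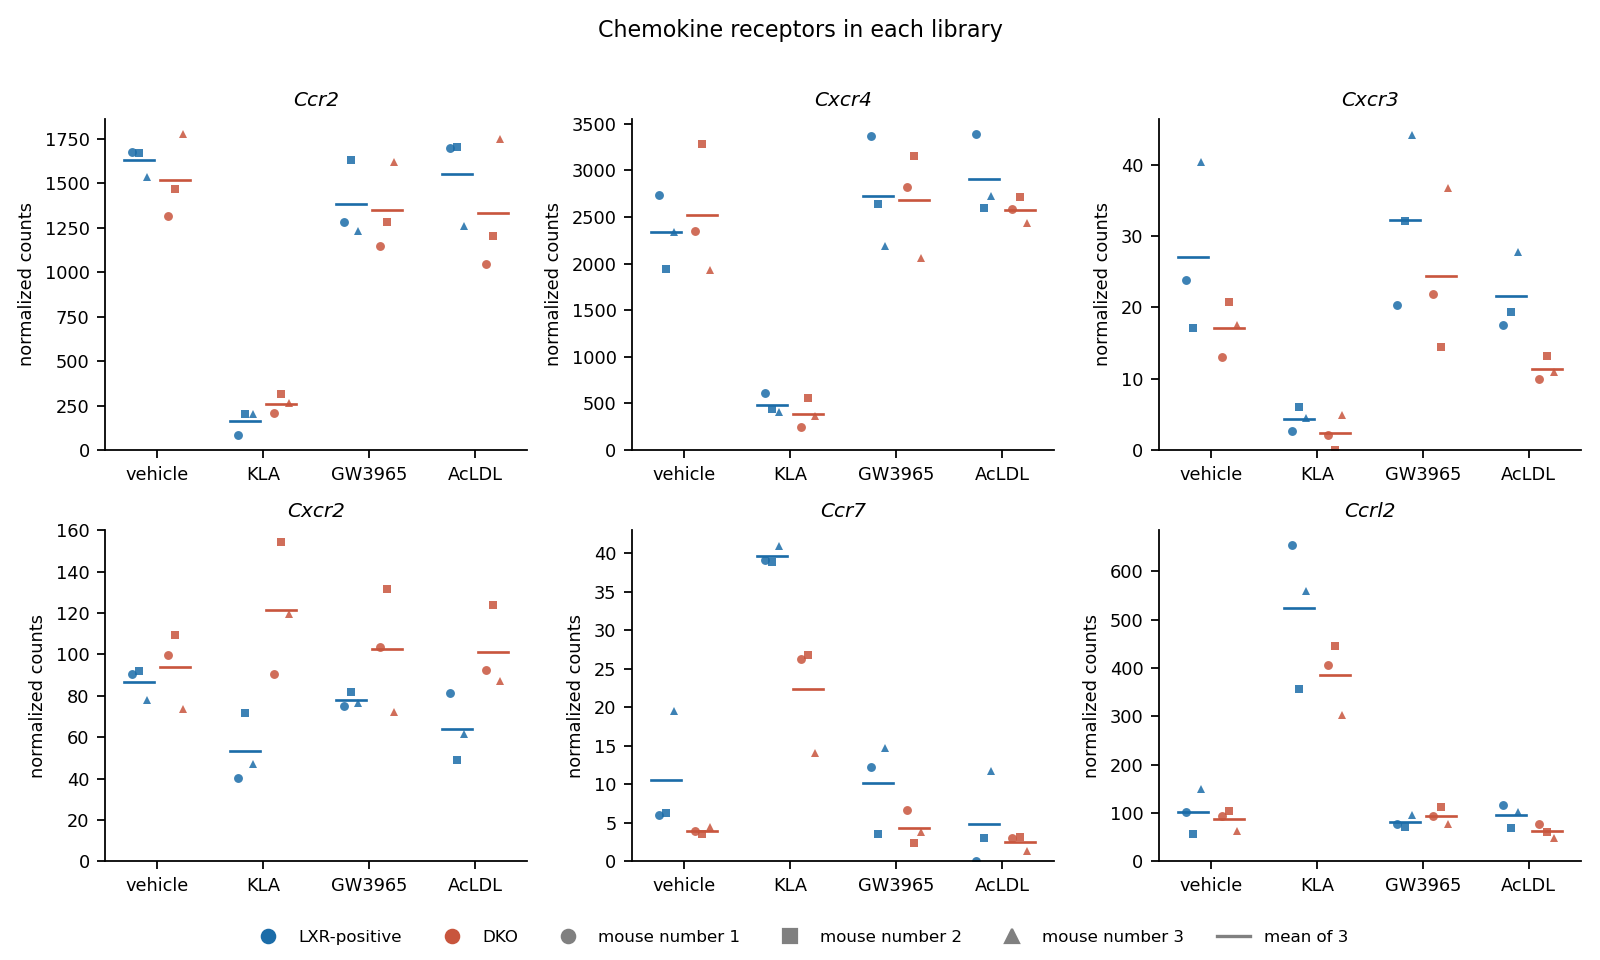
Normalized counts (y axis, linear from 0) of 6 receptors in each of the 24 libraries, by treatment; blue LXR-positive, red DKO, symbols give the mouse number within a genotype and bars the mean of 3. Ccr2 and Cxcr4 are low with KLA and not with GW3965 or AcLDL, Ccr7 and Ccrl2 are high with KLA, and Cxcr2 is higher in DKO than in LXR-positive cells with KLA.

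CXC receptors fell or were not called. Cxcr4, which holds cells in the marrow through Cxcl12 (chromosome 1, 128588199 to 128592293), had 2735, 1941 and 2342 with vehicle and 616, 436 and 413 with KLA in LXR-positive and 2348, 3284 and 1926 with vehicle and 244, 554 and 362 with KLA in DKO libraries. All KLA libraries lay below all vehicle libraries (-2.27 ± 0.28, limma adjusted p = 9.6e-05, and -2.74 ± 0.28, 2.5e-05). Cxcr3, a receptor of activated T cells on chromosome X, fell from 23.8, 17.1 and 40.3 to 2.61, 5.99 and 4.55 in LXR-positive and from 13.1, 20.8 and 17.6 to 2.13, 0 and 4.90 in DKO cells (-2.35 ± 0.60, 0.0118, and -2.76 ± 0.60, 0.00549). The LXR-positive call was lost without vehicle 3 (0.0508). Lymphocyte markers fell alongside: 3 of 4 tested were lower in LXR-positive and 1 of 4 in DKO cells, and the sum over all 12 lay at 346 to 434 with vehicle and 79.4 to 157 with KLA in LXR-positive, and at 236 to 334 and 121 to 143 in DKO cells. None of the 12 was at 0 in every library. Ncr1, Klrb1c and Trbc2 had a median of 0, and Cd4, which macrophages can also express, made up most of the sum. Their part in the fall of Cxcr3 was not tested.

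Cxcr2, the neutrophil receptor for ELR ligands, passed with KLA in LXR-positive cells. It had 90.4, 91.8 and 78.2 with vehicle and 40.4, 71.9 and 47.1 with KLA in LXR-positive libraries (-0.74 ± 0.26, limma adjusted p = 0.0483). In DKO libraries it had 99.6, 109 and 73.5 with vehicle and 90.3, 154 and 119 with KLA (0.35 ± 0.26, 0.358). The LXR-positive KLA libraries lay below vehicle, while the DKO groups overlapped. The LXR-positive call stood at the threshold and was lost with edgeR (0.0682), DESeq2 (0.0503), pseudocount 8 (0.054), quantile normalization (0.0506) or no filter (0.0794), and without any of its 6 libraries except KLA 2 (0.0674 to 0.155). The difference between the responses was 1.09 ± 0.36 (limma adjusted p = 0.863). Neutrophil markers fell with KLA too, 8 of 11 tested in LXR-positive and 5 of 11 in DKO cells. Their part in the change of Cxcr2 was not tested. Cxcr6, the receptor of Cxcl16, had group means of 11.1 to 22.5 and was not called.

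Of the CX3C and XC receptors, Cx3cr1, the fractalkine receptor of resident monocytes and macrophages, had 1285, 1514 and 725 with vehicle and 1078, 2129 and 1302 with KLA in LXR-positive and 975, 804 and 475 with vehicle and 1256, 776 and 950.1 with KLA in DKO cells, and its groups overlapped (adjusted p = 0.462 and 0.388). Xcr1, a receptor of cross-presenting dendritic cells, had group means of at most 22.7 and was not called, except in DKO cells without vehicle 3 (adjusted p = 0.0387). Ccrl2, an atypical receptor that binds chemerin, rose. It had 101, 56.0 and 149 with vehicle and 655, 356 and 560.1 with KLA in LXR-positive and 92.9, 104 and 63.6 with vehicle and 406, 446 and 304 with KLA in DKO cells. The groups did not overlap (2.41 ± 0.34, limma adjusted p = 0.00022, and 2.15 ± 0.34, 0.00061). Ackr4, the other atypical receptor with enough reads, which takes up Ccl19, Ccl21 and Ccl25, had group means of 10.7 to 18.7 and shares 479 exon bases with Acad11 on the opposite strand.

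No difference between the genotypes' KLA responses was called for any of the 40 members in limma, edgeR or DESeq2. At an unadjusted p under 0.05 there were 3 in limma (Cxcl10, Ccl22 and Cxcr2), 3 in edgeR and 4 in DESeq2. Over all genes there were 855 and 883 of 15957 in limma and edgeR, and 870 of 15949 in DESeq2. At the adjusted threshold the same contrast called 0.0689% of all genes in limma. In the authors' deposited table, which tests this difference, the lowest adjusted p of a member with KLA was 0.505, for Cxcr2. For GW3965 and AcLDL the lowest values there were 0.999 and 1.

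The genotypes themselves differed for few members in each treatment. With vehicle, 0 of 36 tested members were called in limma, 0 in edgeR and 0 in DESeq2, beside 0.316% of all genes in limma. At an unadjusted p under 0.05 there were 4, 5 and 6 members. Over all genes there were 1965 and 1999 of 16116 in limma and edgeR, and 2033 of 16110 in DESeq2. With KLA 1 of 40 was called (6.87% of all genes), with GW3965 1 of 36 (9.64%) and with AcLDL 1 of 35 (8.60%). All 3 were higher in DKO cells: Cxcr2 with KLA, Cxcl14 with GW3965 and Cxcl2 with AcLDL. The DKO groups of the 4 treatments come from the same 3 mice, and so do the LXR-positive groups, so these are not independent comparisons.

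Cxcr2 with KLA had a mean of 53.1 ± 16.6 in LXR-positive and 121 ± 32.1 in DKO cells (SD, n = 3), a log2 difference of 1.19 ± 0.26 (limma adjusted p = 0.0224). All 3 DKO libraries lay above all 3 LXR-positive ones. The call was lost without DKO KLA 2 (0.0941), DKO KLA 3 (0.0663) or LXR-positive KLA 3 (0.0633). Neutrophil markers were higher in the same DKO libraries: the sum over all 12 was 2257, 2682 and 2268 in LXR-positive and 3337, 7576 and 5345 in DKO KLA libraries. Mpo, Ngp and S100a9 were called higher, 3 of 11 tested, beside 6.87% of all genes called. Ly6g, the defining marker of mature neutrophils, had a median of 2.75. Of the 31-base words of Cxcr2's transcripts, 12.1% also occur in another gene. The part of neutrophil RNA in the difference was not tested. With vehicle, GW3965 and AcLDL, Cxcr2 had 86.8 ± 7.49, 77.9 ± 3.55 and 63.9 ± 16.3 in LXR-positive and 94.1 ± 18.5, 103 ± 29.8 and 101 ± 19.9 in DKO cells, and none of these differences passed. Neutrophil markers were called higher in DKO cells there too with GW3965 (7 of 11, beside 9.64% of all genes called) and AcLDL (6 of 11, beside 8.60%). With vehicle 0 of 11 were called, beside 0.316% of all genes. The median log2 difference of the 11 was 0.86 with vehicle, 1.03 with GW3965 and 1.22 with AcLDL. The vehicle sums did not overlap, at 4622 to 4781 in LXR-positive and 6451 to 9392 in DKO libraries.

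Cxcl14 with GW3965 had 22.4, 32.1 and 10.3 in LXR-positive and 109.5, 167 and 72.2 in DKO libraries, without overlap (2.43 ± 0.55, limma adjusted p = 0.0209). The call was lost without DKO GW3965 1 (0.0667) or 2 (0.0886), or LXR-positive GW3965 1 (0.055) or 3 (0.0526). With AcLDL it had 36.7, 44.5 and 29.2 and 116, 180.0 and 81.2 (1.69 ± 0.49, 0.054), and with vehicle 33.3, 54.5 and 12.2 and 94.8, 106 and 45.5 (1.42 ± 0.55, 0.339). The AcLDL difference passed with pseudocount 8 (adjusted p = 0.0407), edgeR (0.0471), DESeq2 (0.00493), all 24 libraries (0.0326) or without DKO AcLDL 3 (0.0486). Cxcl2 with AcLDL had 38.3, 13.4 and 32.1 in LXR-positive and 56.7, 91.2 and 61.2 in DKO libraries, again without overlap (1.38 ± 0.33, 0.027). That call was lost with reads thinned to the shallowest library (0.0531) and without DKO AcLDL 1 (0.059), DKO AcLDL 2 (0.123) or LXR-positive AcLDL 2 (0.0615).

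A group of 5 ligands was looked at mouse by mouse, and it was chosen after its values were seen. Ccl2, Ccl7, Cxcl12, Cxcl14 and Ppbp were higher in DKO mice 1 and 2 than in DKO mouse 3 with vehicle. Ccl2 had 269, 383 and 97.4, Ccl7 39.2, 62.9 and 11.7, Cxcl12 62.4, 73.0 and 7.21, and Ppbp, the precursor of platelet chemokines, 52.2, 70.6 and 12.2. In LXR-positive vehicle libraries Ccl2 had 26.2, 148 and 26.9 and Ccl7 2.38, 16.3 and 2.44, highest in mouse 2, while Cxcl12 had 21.4, 8.56 and 7.33 and Ppbp 32.1, 17.9 and 7.33, highest in mouse 1. The sum of 12 stromal markers was 2916, 4699 and 332 in DKO and 1055, 258 and 153 in LXR-positive vehicle libraries. With GW3965 the sum was 5454, 9422 and 1840.4 and 1033, 444 and 269.7, and with AcLDL 2327, 5399 and 334 and 1419, 518 and 193. Collagen genes made up most of it (Col1a1, 24.4 to 3462), none of the 12 was at 0 in every library, and Lum was at 0 in 10. Of 11 stromal markers tested, 1 (Dcn) was called higher in DKO cells with GW3965, and 0 with vehicle, KLA or AcLDL. With vehicle, DKO mouse 3 was thus lowest of its group in the stromal sum and in these ligands. With the other treatments DKO mouse 3 was also lowest in these ligands, with 3 exceptions in which mouse 1 was lowest: Ccl2 with GW3965 (92.9, 397 and 210.3), Ccl7 with GW3965 (25.9, 79.1 and 30.4) and Cxcl14 with KLA (64.0, 110.0 and 90.0). The part of stromal RNA in Cxcl14, Ccl2, Ccl7, Cxcl12 and Ppbp was not tested. The sum of 12 megakaryocyte and erythroid markers in DKO libraries was 195, 215 and 109 with vehicle, 259, 205 and 181 with KLA, 321, 282 and 125 with GW3965 and 267, 244 and 126 with AcLDL. It too was lowest in mouse 3 in every treatment, and its part in the values of Ppbp was not tested.

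In limma, none of the DKO against LXR-positive differences of Ccl2, Ccl7, Cxcl12 and Ppbp passed. Ccl2 differed by 2.17 ± 0.81 with vehicle (limma adjusted p = 0.317), 2.40 ± 0.81 with GW3965 (0.08) and 2.35 ± 0.71 with AcLDL (0.0633). Ccl7 differed by 2.45 ± 0.72 (0.222), 1.498 ± 0.72 (0.202) and 2.45 ± 0.72 (0.0557) in the same order. Some passed under other settings. Ccl2 passed with GW3965 when all 24 libraries were in 1 fit (adjusted p = 0.0437), and with AcLDL in DESeq2 (0.0153) or without DKO AcLDL 3 (0.0466). Ccl7 with AcLDL passed with pseudocount 8 (adjusted p = 0.0474), in DESeq2 (0.0117), with all 24 libraries (0.022) or without DKO AcLDL 3 (0.0475). Cxcl12 with GW3965 passed in DESeq2 (0.0254). The mean of Ccl6 also differed between DKO and LXR-positive cells, by 0.50 ± 0.19, 0.75 ± 0.24, 0.60 ± 0.19 and 0.41 ± 0.18 with vehicle, KLA, GW3965 and AcLDL, each short of the threshold in limma (adjusted p = 0.326, 0.0831, 0.0648 and 0.167). With KLA it passed in DESeq2 (adjusted p = 0.0228) and with all 24 libraries (0.0312). With GW3965 it passed with quantile normalization (0.0346), in DESeq2 (0.0237) and without LXR-positive GW3965 3 (0.046). Ccl9 with AcLDL went the other way, with 7333, 7518 and 6480 in LXR-positive and 5575, 5088 and 5185 in DKO libraries, without overlap. Its difference was not called in limma and passed in DESeq2 (-0.43, adjusted p = 0.0173).

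**Figure D4:**
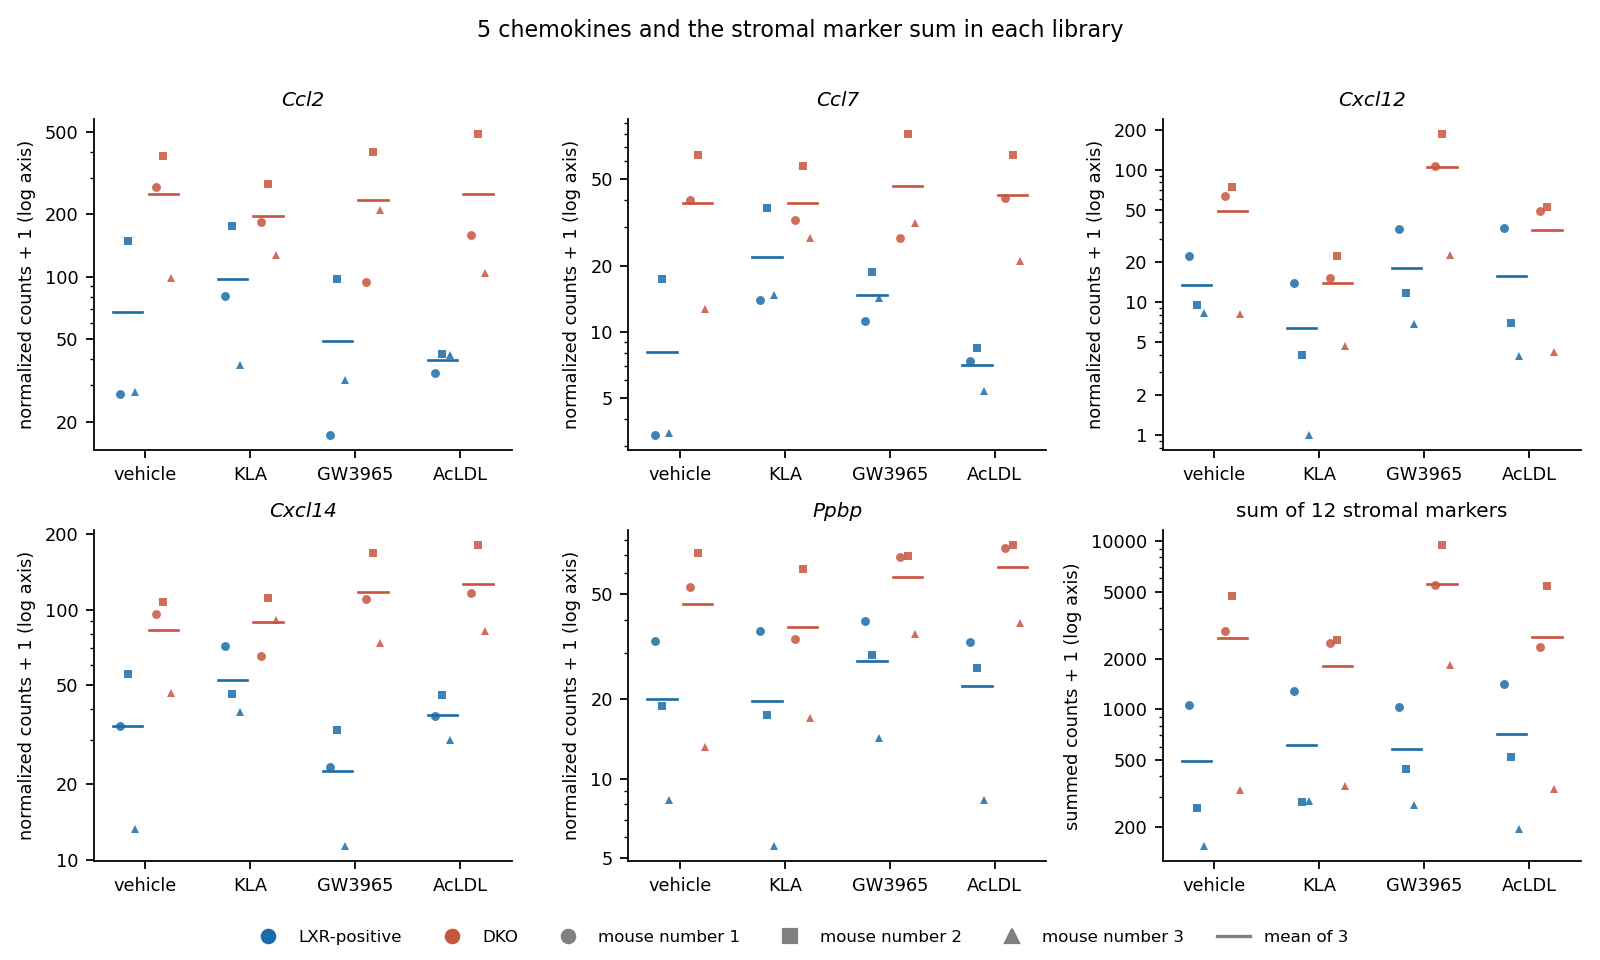
Normalized counts + 1 (y axis, log scale) of 5 ligands and the sum of 12 stromal markers in each of the 24 libraries, by treatment; blue LXR-positive, red DKO, symbols give the mouse number within a genotype and bars the mean of 3. DKO mouse 3 (red triangles) has the lowest stromal sum of the DKO mice in every treatment, 332 with vehicle.

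GW3965 called no family member in either genotype. In LXR-positive cells 0 of 36 were called in limma, edgeR and DESeq2, beside 0.267% of all genes in limma. At an unadjusted p under 0.05 there were 1, 1 and 2, beside 988, 911 and 845 of all genes (16116, and 16110 in DESeq2). In DKO cells 0 of 36 were called in the 3 tools, beside 0.00621% in limma. At an unadjusted p there were 0, 0 and 0, beside 940, 1024 and 1024 genes. The difference between the responses gave 0, beside 0.118%. At an unadjusted p it gave 0, 0 and 0, beside 752, 740 and 715 genes. Cx3cr1 came closest, with 1285, 1514 and 725 with vehicle and 599.8, 782 and 454 with GW3965 in LXR-positive libraries, where each mouse was lower with GW3965 and the groups overlapped (-0.91 ± 0.33, limma adjusted p = 0.66). With the mouse as a block this fall passed (adjusted p = 0.0218). In DKO cells Cx3cr1 had 975, 804 and 475 with vehicle and 645, 719 and 414 with GW3965 (-0.32 ± 0.33, 0.953), and the responses did not differ detectably (0.59 ± 0.47, 0.992). Among ligands that rose with KLA, none passed with the LXR agonist. In LXR-positive cells Cxcl2 had 53.5, 58.4 and 59.9 with vehicle and 34.6, 23.2 and 60.4 with GW3965 (-0.63 ± 0.31, 0.828), Cxcl9 41.6, 4.67 and 28.1 with vehicle and 6.10, 1.78 and 8.84 with GW3965 (-1.73 ± 0.90, 0.834), and Ccl5 45.2, 66.2 and 149 with vehicle and 52.9, 32.1 and 84.0 with GW3965 (-0.54 ± 0.66, 0.921). Cells that received both KLA and GW3965 were not among the groups.

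AcLDL changed 1 member. In LXR-positive cells 1 of 35 was called in limma (0.225% of all genes), 1 in edgeR (20 of 16026 genes) and 2 in DESeq2 (270 of 16016). In DKO cells 0 of 35 were called in limma (0.125% of all genes), 0 in edgeR and 2 in DESeq2 (78 of 16016 genes). At an unadjusted p under 0.05 there were 6 in limma and 6 in edgeR, beside 1004 and 1071 of 16026 genes. The difference between the responses gave 0 in the 3 tools, beside 0.0250% in limma. At an unadjusted p it gave 2, 2 and 2, beside 543, 528 and 492 genes. Pf4 (ENSMUSG00000029373, chromosome 5, 90772435 to 90773383) rose from 162, 261 and 219.9 with vehicle to 537, 534 and 482 with AcLDL in LXR-positive libraries, without overlap (1.29 ± 0.19, limma adjusted p = 0.0242). In DKO libraries it had 258, 312 and 271 with vehicle and 401, 465 and 637 with AcLDL (0.81 ± 0.19, 0.336), also without overlap, and DESeq2 called it (0.0119). The LXR-positive call was lost with all 24 libraries in 1 fit (0.158) and without any of its 6 libraries except vehicle 2 (0.0654 to 0.0869). The 12 megakaryocyte and erythroid markers summed to 98.1 to 129.7 with vehicle and 86.1 to 158 with AcLDL in LXR-positive cells, 0 of 4 tested were called, and none was at 0 in every library. In DKO cells they summed to 109 to 215 with vehicle and 126 to 267 with AcLDL. The ranges with vehicle and AcLDL overlapped in both genotypes. The part of these markers' cells in the rise of Pf4 was not tested.

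Cxcl16 did not pass with AcLDL, although its libraries separated. It had 3889, 3961 and 3458 with vehicle and 2829, 2779.6 and 2658 with AcLDL in LXR-positive and 3706, 3647 and 3719 with vehicle and 2644, 2519.9 and 2933 with AcLDL in DKO libraries. All 6 AcLDL libraries lay below all 6 vehicle libraries, but limma did not call the change (-0.45 ± 0.08, adjusted p = 0.0658, and -0.45 ± 0.08, 0.113). DESeq2 called it in both (0.00011 and 7.4e-05), and so did limma with the mouse as a block in LXR-positive cells (0.0363). Ccr1 had 63.1, 112 and 83.1 with vehicle and 153, 183 and 130.0 with AcLDL in LXR-positive cells (0.87 ± 0.28, 0.263) and passed with the block (0.0363).

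The interferon-inducible ligands had lower means with AcLDL, short of the threshold. Cxcl9 had 41.6, 4.67 and 28.1 with vehicle and 1.59, 4.45 and 5.84 with AcLDL in LXR-positive libraries and 32.9, 13.6 and 83.0 with vehicle and 6.13, 4.68 and 7.09 with AcLDL in DKO libraries (-2.06 ± 0.77 and -2.33 ± 0.77, limma adjusted p = 0.317 and 0.64). Cxcl10 had 87.7, 44.5 and 51.1 and 78.1, 21.0 and 94.7 with AcLDL (-1.70 ± 0.56 and -1.38 ± 0.56, 0.271 and 0.759). Ccl5 had 35.1, 19.3 and 61.3 and 27.6, 38.2 and 50.9 (-1.12 ± 0.47 and -1.10 ± 0.47, 0.374 and 0.767). With vehicle, Cxcl10 had 227, 175 and 177 in LXR-positive cells, above every AcLDL library there. In DKO cells it had 84.2, 107 and 320.1 with vehicle, and the groups overlapped. The Cxcl9 and Ccl5 groups overlapped in LXR-positive and not in DKO cells. The spread of the vehicle libraries was wide for Cxcl9 in both genotypes and for Cxcl10 in DKO cells. None of the 3 ligands passed. Ccl2, Ccl6, Ccr2 and Cxcr4 were not called with AcLDL in either genotype (LXR-positive log2 fold changes -0.29, 0.17, -0.08 and 0.31).

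**Figure D5:**
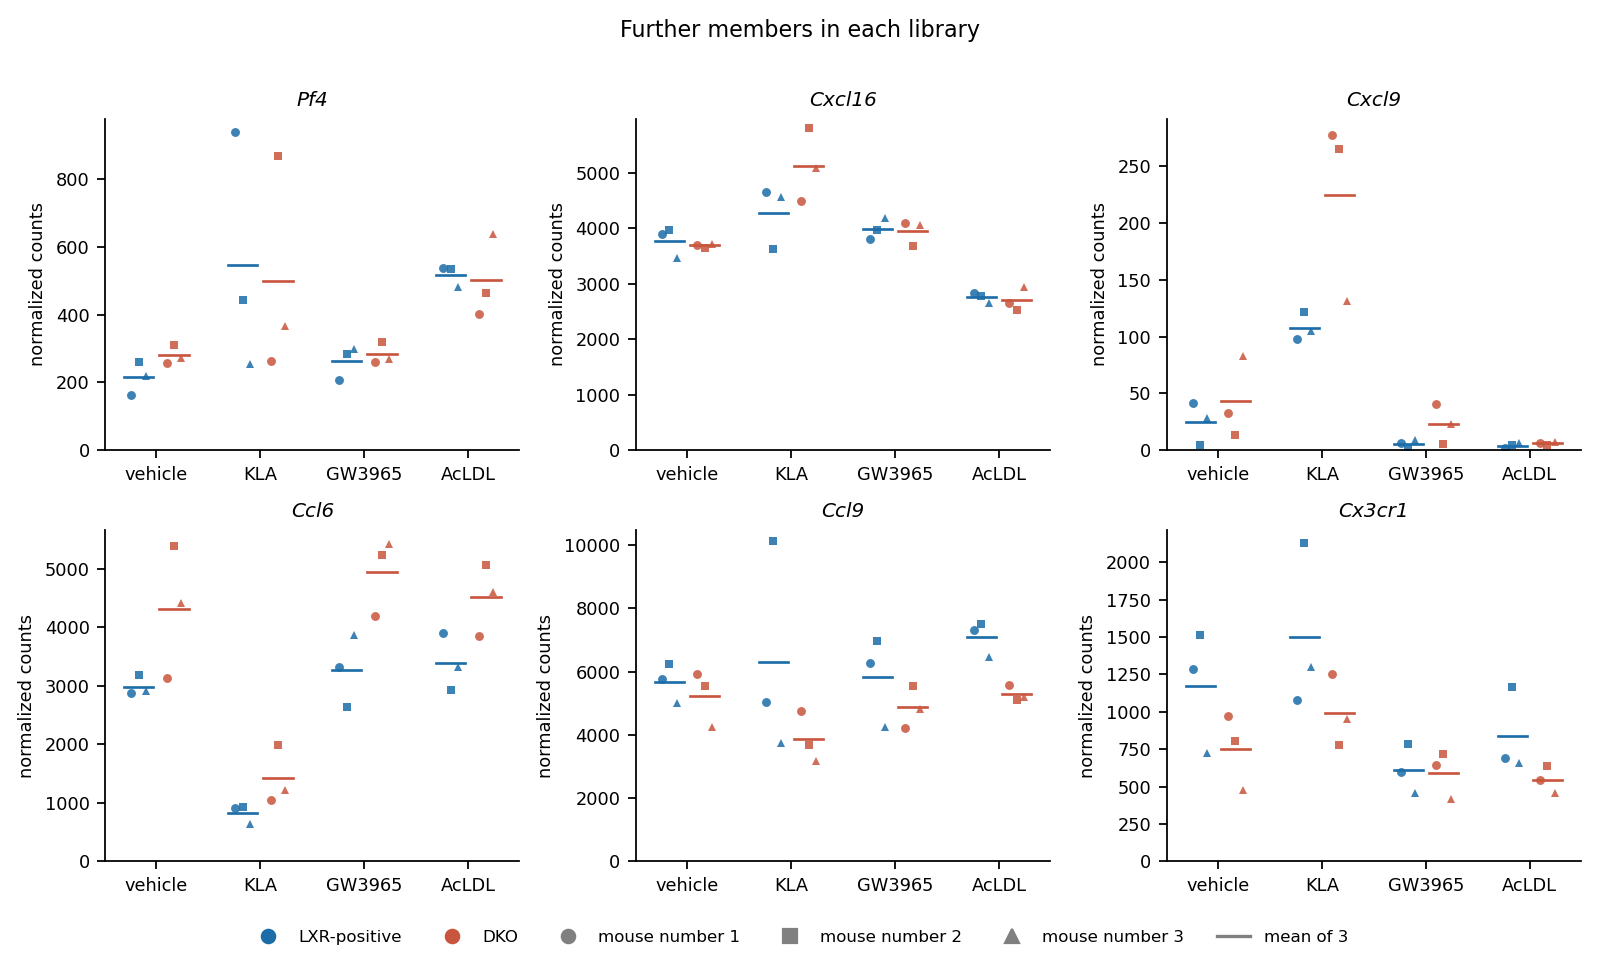
Normalized counts (y axis, linear from 0) of 6 further members in each of the 24 libraries, by treatment; blue LXR-positive, red DKO, symbols give the mouse number within a genotype and bars the mean of 3. Pf4 is higher and Cxcl16 lower with AcLDL than with vehicle in every library, and Ccl6 is lowest with KLA.

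Members at the low end were as follows. Ccl21a, Ccl21b, Ccl26 and Ccl27b had 0 reads in all 24 libraries, which allows up to 3 reads in 334442812, for counting error only. All 31-base words of Ccl21b and Ccl27b also occur in other genes, as do 80.6% of those of Ccl21a, so reads of these copies could not be assigned to them alone. Of the 59 members with reads, 16 never reached 10 normalized counts in a library, and Ccl28, Ccr1l1 and Cxcr5 reached 10 in too few libraries to be tested. The 16 included Ccl1, Ccl17, Ccl19 and Ccl20, the receptors Ccr4, Ccr6, Ccr8 and Cxcr1, and the atypical receptors Ackr1, Ackr2 and Ackr3. Ccl17, which shares Ccr4 with Ccl22 and lies beyond Cx3cl1 from it on chromosome 8, had 6 reads in all libraries together. The B cell chemokine Cxcl13 had 10 and the lymphocyte chemokine Xcl1 had 8.

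Of 47 tested genes of chemokine receptor signalling, 10 rose and 10 fell with KLA in each genotype, beside 28.6% of all genes called in LXR-positive and 25.2% in DKO cells. Their median log2 fold change was -0.04 in LXR-positive and 0.07 in DKO cells, beside -0.0028 and -0.0038 over all genes. Rac2, a GTPase of leukocyte movement, rose from 1295 ± 104 to 3297 ± 166 in LXR-positive cells (SD, n = 3, log2 1.35 and 1.34 in DKO). The Src-family kinase Fgr (1.96 and 1.65) rose too, as did the G protein subunit Gng12 (1.41 and 1.47). Rgs2, which shortens G protein signals, fell from 1191 ± 95.5 to 343 ± 64.2 (-1.81 and -1.84), and Tiam1, an activator of Rac, fell by the log2 values -2.06 and -2.28. With GW3965 in LXR-positive cells 1 of 47 was called (0.267% of all genes), Rgs3 (-0.97), another terminator of G protein signals, and with AcLDL 0 (0.225%, limma). Between genotypes, 4 were higher and 6 lower in DKO cells with GW3965 (9.64% of all genes called). With AcLDL 1 was higher and 5 lower (8.60%), with KLA 0 and 3 (6.87%), and with vehicle 0 and 0 (0.316%). Gnai3 and Cdc42 were called lower in DKO cells with KLA, GW3965 and AcLDL.

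Proteases that trim or shed chemokines went both ways with KLA: 5 rose and 6 fell of 21 in LXR-positive, and 5 rose and 9 fell in DKO cells, beside the same 28.6% and 25.2% of all genes. The median log2 fold change of the 21 was -0.25 and -0.31, beside -0.0028 and -0.0038 over all genes. Mmp14, a membrane matrix metalloprotease, rose from 1230.2 ± 409 to 12079 ± 1096 in LXR-positive cells (log2 3.35 and, in DKO, 3.35). Mmp9, which cleaves ELR ligands, rose by 2.58 and 1.81, Cpd, a carboxypeptidase, by 2.29 and 1.84, and Adam17, a sheddase, by 0.61 in LXR-positive cells. Elane, neutrophil elastase, fell to a mean of 2.31 and 4.44 (-3.78 and -4.46). It is also one of the neutrophil markers given above. In DKO cells Plau fell from 1475 ± 874 to 101 ± 30.3 (log2 -3.68) and Anpep from 5057 ± 960 to 2046 ± 455 (-1.31). Of 21 tested receptors for other leukocyte attractants, 4 rose and 8 fell in LXR-positive and 5 rose and 7 fell in DKO cells, again beside 28.6% and 25.2% of all genes. The formyl peptide receptors Fpr1 and Fpr2 rose by 3.82 and 3.91, and Gpr84, a receptor for medium-chain fatty acids, by 4.43, while C5ar2, a complement C5a receptor, changed by -2.08 in LXR-positive cells. With AcLDL in LXR-positive cells 2 of 20 fell, Fpr1 (-1.86) and Fpr2 (-2.002), beside 0.225% of all genes called.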

How the data were processed

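RNA of bone-marrow-derived macrophages was sequenced from 24 libraries: 2 genotypes with 3 mice each, 4 treatments, 500 ng of RNA, a stranded total-RNA kit and 50-base single-end reads, per the labels' protocols. The submitters' processing notes name kallisto, DESeq2 and GRCm38. The sources used here do not give versions, annotation or strand setting. The authors deposited normalized counts (signal: reads divided by a size factor) in 3 tables, with log2 fold changes, their standard errors, test scores and p-values of their own test of the genotype difference in response. Vehicle values were identical in the 3 tables. Whole reads were recovered for 100.0% of values within 0.01 read, and served edgeR and DESeq2 as alternatives.

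The main test was limma 3.58.1 (limma-trend, R 4.3.3) on log2(value + 1), fitted per table on 12 libraries with 4 group means. Genes needed at least 10 normalized counts in 3 libraries. P-values were adjusted by Benjamini-Hochberg over all genes tested, and a call is an adjusted p under 0.05. The vehicle comparison of genotypes came from the GW3965 table. Alternatives were pseudocount 8, no filter, quantile normalization, edgeR 4.0.16 (quasi-likelihood, TMM), DESeq2 1.42.0, all 24 libraries in 1 fit, a mouse or number block, thinned reads for genotype contrasts, and leaving out each library. The fitting script was tested on simulated data. Reads per library were 6448579 to 27189081, and intervals or floors from them cover counting error only.

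Same-numbered libraries of 1 genotype come from the same mouse, per the series' design text. Their deviations from group means correlated with a median r of 0.158 (-0.0278 to 0.358) over 36 pairs and 16060 genes, 28 pairs above 0.1. Members and gene lists were chosen with earlier results of these data known. Genes named in full were members called in any comparison or with a group mean of at least 100, and the others are described by range. Exon overlaps, shared words and member positions come from GENCODE M21 (GRCm38), in which 60 of 63 members had the tables' start and end. Left out were 7 copies on unplaced scaffolds and 3 non-coding rows. Some items, 1 tested member among them, are included in counts and are not reported here.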

Additional observations from a re-analysis of the deposited data

How the results depend on the processing

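Of 34 calls of a member in a comparison, 23 held under every alternative run, 11 were lost under at least 1 and 0 reversed. With KLA, leaving out 1 library gave 13 to 15 members in LXR-positive and 12 to 15 in DKO cells. The single genotype calls were less stable: leaving out 1 library gave 0 to 2 members with KLA, 0 to 3 with GW3965 and 0 to 4 with AcLDL, and 0 to 1 for AcLDL against vehicle in LXR-positive cells. Over all genes it gave 127 to 1144, 458 to 1631, 116 to 1367 and 10 to 32 in the same order. DESeq2 called 3 members between genotypes with KLA, 3 with GW3965 and 5 with AcLDL, beside 1803 of 15949, 2110 of 16110 and 1868 of 16016 genes. With AcLDL against vehicle it called 2 in each genotype, beside 270 and 78 of 16016 genes. All 24 libraries in 1 fit gave 3, 2 and 3 between genotypes with KLA, GW3965 and AcLDL, and 0 for AcLDL in LXR-positive cells. Quantile normalization gave 2 between genotypes with GW3965. With AcLDL, pseudocount 8 gave 3, edgeR 2 and thinned reads 0. Over all genes, the alternatives called 731 to 1852 between genotypes with KLA, 1106 to 2182 with GW3965 and 1069 to 1868 with AcLDL. The cause was not tested.

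With the mouse as a replicate block, GW3965 in LXR-positive cells gave 1 member and AcLDL 3, and KLA gave 18 in LXR-positive and 15 in DKO cells. Over all genes the block gave 52, 247, 4789 and 4249 in the same order. No label pairs mice across genotypes. A replicate block by number there gave 2 members with KLA, 6 with GW3965, 1 with vehicle and 6 with AcLDL. Over all genes it gave 832 of 15957, 2182 and 91 of 16116, and 1433 of 16026 in the same order. Same-numbered deviations across genotypes had a median r of 0.0439 (-0.177 to 0.283) over 48 pairs.

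Counts over all genes moved more, mostly under DESeq2. The genotype difference in response went from 11 to 49 genes with KLA, from 19 to 55 with GW3965 and from 4 to 12 with AcLDL. GW3965 went from 43 to 86 in LXR-positive and from 1 to 26 in DKO cells. AcLDL went from 36 to 270 in LXR-positive cells, and from 20 to 78 in DKO cells. In LXR-positive cells the AcLDL count was 247 in limma with the mouse as a block and 20 with edgeR. The vehicle genotype comparison went from 51 (39 higher, 12 lower) to 304 (126 and 178). Higher and lower calls under DESeq2 were 11 and 38 for the KLA difference (0 and 11 in limma), 12 and 14 for GW3965 in DKO cells (0 and 1), 88 and 182 for AcLDL in LXR-positive (16 and 20) and 33 and 45 in DKO cells (2 and 18). Between genotypes the alternatives gave 731 to 1852 with KLA beside 1097, and leaving out 1 library gave as few as 127 with KLA, 458 with GW3965 (from 1553) and 116 with AcLDL (from 1379). Depth limits the 16 detected members that never reached 10 normalized counts, none of which was tested in the main fit. With no filter, Cxcl17 among them was called lower with KLA in LXR-positive cells (-1.55, limma adjusted p = 0.00981). It had 1.19, 2.33 and 2.44 with vehicle and 0, 0 and 0 with KLA there.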

Other observations

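Cxcl11, the remaining ligand of Cxcr3, is annotated as a polymorphic pseudogene, and C57BL/6 mice are known to carry a disrupted copy. It lies near Cxcl10 on chromosome 5 (GRCm38, 92359544 to 92365485) and had a mean of 3.63 normalized counts over all libraries. It was not counted among the 63 genes.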
